A study of Saccharomyces cerevisiae with 4 samples.

Results

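The 200 most abundant transcripts of mature Saccharomyces cerevisiae spores were chosen by their read counts alone. Each of 4 deposited libraries was converted to CPM, meaning reads of a gene per 1000000 reads of that library, and genes were ordered by the lowest of their 4 CPM values. The 200 genes at the head of this order were taken from 7132 listed features, so that a member was abundant in every library and not only on average. Because the CPM values selected the members, their levels are a description and carry no test.

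The 4 libraries came from spores of an SK1-background diploid that carries the meiotic regulator IME1 under the copper-inducible CUP1 promoter, together with a cassette of mCherry, a red fluorescent protein driven by the GPD1 promoter, and the hygromycin resistance gene hph, integrated at MATa. Spores were harvested 7 days after copper induction, freed from the ascus and sorted by flow cytometry. The groups were 2 libraries of RFP positive spores, which are red and inherited the cassette, and 2 libraries of RFP negative spores from the same diploid. The replicate number marks an independent sporulation and sort of the same strain, so the RFP positive and RFP negative libraries of 1 number share a culture and the 4 libraries are not 4 independent samples. The strain labels and the study's description do not assign the same mating type to every library, and groups are therefore named by fluorescence. Where a group has 2 values, that of replicate 1 stands before that of replicate 2.

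A yeast spore is a dormant haploid gamete that forms inside the former diploid cell when nitrogen and fermentable sugar run out. It is enclosed in a wall whose inner glucan and mannan layers resemble those of a vegetative cell and whose outer chitosan and dityrosine layers are found only in spores. Spores are known for little ongoing transcription, a store of trehalose, small protective proteins and messenger RNA that can be used when nutrients return. In vegetative cells the most abundant messages encode ribosomal proteins and glycolytic enzymes.

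The promoters of 3 of the top-ranked genes are shown at the sites that match the stress response element AGGGG, the sequence bound by the transcription factors Msn2 and Msn4, because this motif was present in a larger share of member promoters than of all promoters. They were picked for carrying it, and GSC2, TEF1, LEU1, TEF2, HXT5 and MET6, all in the top 10, have no match in the same window. Each line gives 30 bases of the R64 reference, 5′ to 3′ on the strand of the gene, with the motif in capitals. CCCCT is the same motif on the opposite strand. The strain is SK1, so its own promoters may differ from these reference bases.
SPO24, chrXVI:645753-645782, plus strand: agagaactttagAGGGGgctcaattagcat
DDR2, chrXV:231986-232015, minus strand: tgttcttctaatCCCCTttctctcctaaaa
DDR2, chrXV:231941-231970, minus strand: tcttcttcttttCCCCTgtttccatttttg
DDR2, chrXV:231913-231942, minus strand: tgtcttttctcaCCCCTtatgggacatcaa
HSP12, chrVI:107012-107041, plus strand: ctagatctacagCCCCTggaaaatcgtttg
HSP12, chrVI:107054-107083, plus strand: gttccggtcgtcCCCCTcttgatctgaaag
The last base of the SPO24 site lies 181 bases before the start codon, those of the DDR2 sites 244, 199 and 171 bases before it, and those of the HSP12 sites 228 and 186 bases before it. A further member, ZWF1, which encodes glucose-6-phosphate dehydrogenase, had the most copies in the window, 5, and 3 of them fall within 30 bases.
ZWF1, chrXIV:198001-198030, minus strand: CCCCTccttctcCCCCTtcCCCCTctccaa

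Library totals ranged from 25493760 to 45697828 reads, and 6096 to 6263 features had at least some reads in each library. At these depths a member was never rare. The smallest member value in any library was an estimated count of 9761 reads, for which counting error alone would be 1.01%. Counting error therefore contributed little to the spread of member values, and PCR duplicates were not separated. Markers of sporulated cells and of dividing cells, checked against the labels, gave a mixed list. Of 11 genes of the mature spore list, SPS100 and AQY1 were members. The list summed to 2813 to 4445 CPM, most of it from SPS100 at 2153 to 3271 CPM. Of the rest, DIT1, DIT2, SPS4, SPS22, CDA2, GAS2, CRR1 and LDS1 each had a lowest CPM under the median of all features. DIT1, which makes the dityrosine precursor, had 25.6 to 29.8 CPM, and GAS2 and LDS1 were at 0 in at least 1 library. None of 5 dividing-cell genes (CLN2, CLB2, CDC20, RNR1 and HTA2) was a member, and they summed to 162 to 609 CPM. In these bulk libraries fewer cells of a type and less RNA per cell cannot be told apart.

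The 200 members held 28.2% ± 0.68 of all reads (SD, n = 4 libraries), with a range of 27.5% to 29.1%. The 10 top-ranked genes held 4.74% ± 0.42 and the top 50 held 14.2% ± 0.86 (SD, n = 4 libraries each). Abundance declined quickly at first and then slowly. The lowest CPM of a gene was 4959 at rank 1, 2254 at rank 10, 883 at rank 50, 614 at rank 100 and 382 at rank 200, against a median of 45.5 over all listed features. From rank 1 to rank 10 the value decreased 2.20-fold, and over the next 190 ranks it decreased 5.90-fold.

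**Figure D1:**
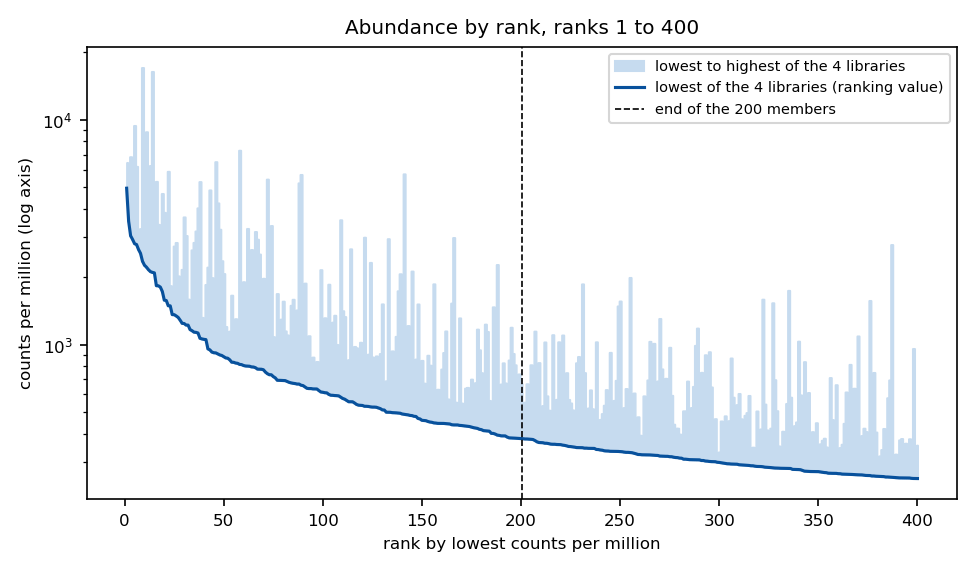
The horizontal axis is the rank by lowest CPM, from 1 to 400, and the vertical axis is CPM on a log scale. The dark line is the lowest of the 4 libraries, which set the order, and the light band reaches to the highest library. The line passes through 382 CPM at rank 200 with no step there, and the band shows single genes whose highest library lies several-fold above their lowest.

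The boundary at rank 200 cut through a gentle slope. Just inside it were ENT2, an epsin of endocytosis, at 383 to 412 CPM, DPS1, the cytoplasmic aspartyl-tRNA synthetase, at 383 to 740.3 CPM, and YAT1, a carnitine acetyltransferase, at 382 to 670.0 CPM. Just outside were SPF1, an ATPase of the endoplasmic reticulum, at 381 to 519 CPM, and NST1, at 381 to 554 CPM. ERG11, the lanosterol demethylase of ergosterol synthesis, followed at 380.5 to 669.5 CPM. Rank 200 and the next rank differed by less than 1 CPM in the value that ordered them, so membership near the boundary says little about a gene.

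The head of the ranking mixed a sporulation gene, a wall synthase, a stress gene, translation elongation factors and enzymes of amino acid synthesis. SPO24, at chrXVI:645950-646153 (plus strand), encodes a small protein of the prospore membrane that is needed for efficient sporulation, and its transcript was the top-ranked one with 5151 and 5673 CPM in RFP positive spores and 4959 and 6449.5 CPM in RFP negative spores. GSC2, at chrVII:548264-553951 (plus strand), encodes the catalytic subunit of the beta-glucan synthase that is used for the spore wall, and had 3546 and 3963 CPM in RFP positive spores and 3538 and 4176 CPM in RFP negative spores. At rank 3 was DDR2, a stress-induced gene whose protein has no established activity, with 3668 and 6445 CPM in RFP positive spores and 3047 and 6843 CPM in RFP negative spores. For SPO24 and GSC2 the 4 libraries lay close together, whereas both replicate 2 libraries of DDR2 were well above both replicate 1 libraries. The study reported evidence of antisense transcripts at DDR2 in these spores. DDR2 was the exception among such genes, since the study did not also find them in published spore data. Whether the DDR2 count includes antisense reads is not stated.

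Ranks 4 and 6 were TEF1 and TEF2, paralogous genes that encode the same elongation factor, which delivers aminoacyl-tRNA to the ribosome. TEF1 had 5803 and 2961 CPM (RFP positive) and 6293 and 2934 CPM (RFP negative), and TEF2 had 5595 and 2785 CPM (RFP positive) and 6199 and 2999.9 CPM (RFP negative). Since 92.5% of the 50-base words of each coding sequence occur elsewhere in the genome, and the handling of reads that map to several places is not stated, the division of reads between these copies is uncertain. LEU1, the isopropylmalate isomerase of leucine synthesis, had 8938 and 2809.8 CPM in RFP positive spores and 9421 and 2949.9 CPM in RFP negative spores, and it was the highest of all features in both replicate 1 libraries. HBT1, a protein of polarized growth, was the highest feature in both replicate 2 libraries, with 2934 and 16908 CPM in RFP positive spores and 2347 and 17056 CPM in RFP negative spores. The lowest library thus set the rank of both genes, at 5 and 9, while their highest libraries were well above those of SPO24.

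HXT5 at rank 7 encodes a hexose transporter that is made when glucose is scarce and growth is slow. Its level was among the steadiest of the top 10, with 2646 and 2983 CPM in RFP positive spores and 2805 and 2909.7 CPM in RFP negative spores. TDH3 at rank 8 encodes the major glyceraldehyde-3-phosphate dehydrogenase and had 2882 and 3278 CPM in RFP positive spores and 3027 and 2545 CPM in RFP negative spores. MET6, the cobalamin-independent methionine synthase, closed the top 10 with 2254 and 2370.0 CPM in RFP positive spores and 2644 and 2986 CPM in RFP negative spores. In none of these 3 genes did a library stand far apart. The highest was 1.13 times the lowest for HXT5, 1.29 times for TDH3 and 1.32 times for MET6.

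**Figure D2:**
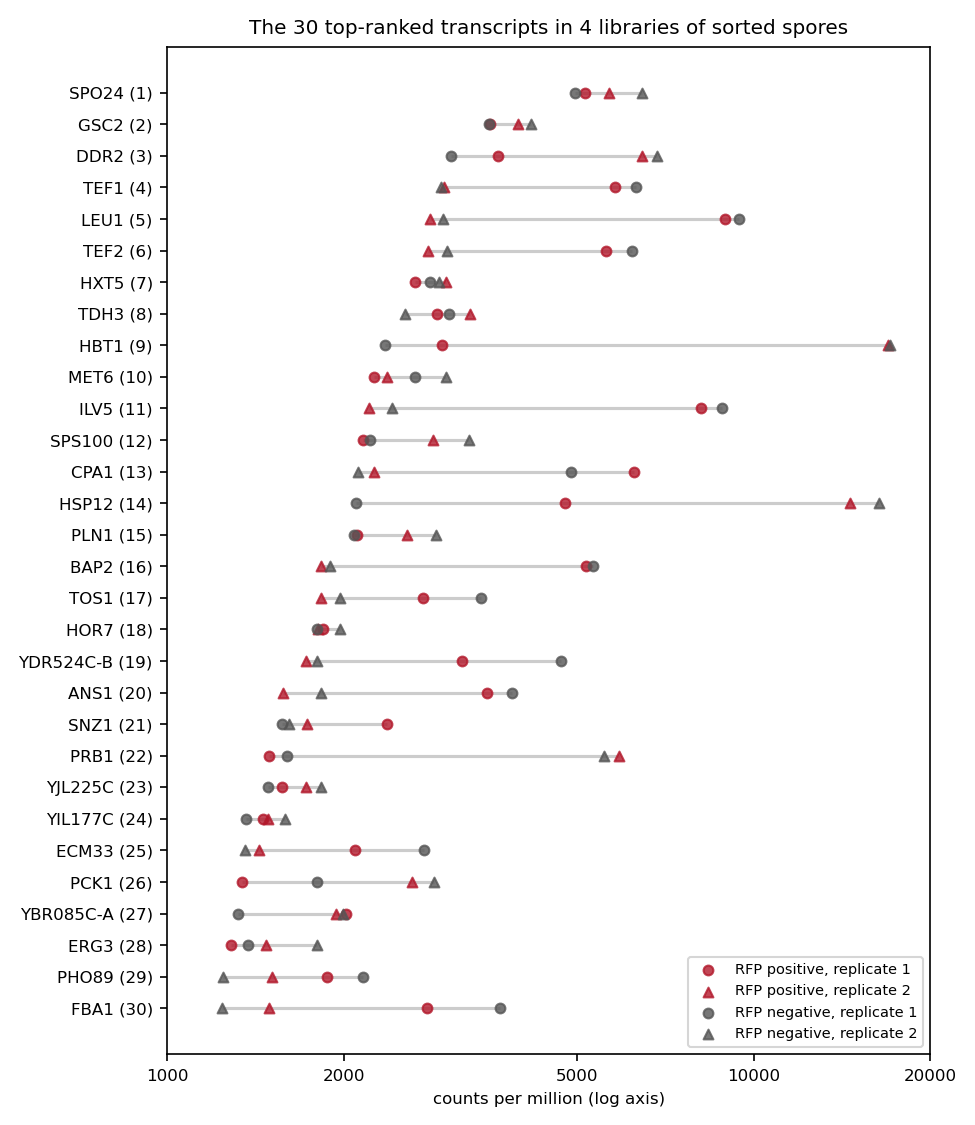
Each row is 1 of the 30 top-ranked genes, with its rank in parentheses, and the horizontal axis is CPM on a log scale. Red marks are RFP positive and grey marks RFP negative spores, circles are replicate 1 and triangles replicate 2, and the grey line joins the lowest and highest library. HXT5, HOR7 and SPO24 form tight groups, whereas HBT1 and HSP12 span 2347 to 17056 CPM and 2094 to 16381 CPM.

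Ranks 11 to 30 were ILV5, SPS100, CPA1, HSP12, PLN1, BAP2, TOS1, HOR7, YDR524C-B, ANS1, SNZ1, PRB1, YJL225C, YIL177C, ECM33, PCK1, YBR085C-A, ERG3, PHO89 and FBA1, and their lowest CPM values ran from 2209 for ILV5 to 1241 for FBA1. Grouped by what each protein does, with every member placed in 1 of 17 groups once the ranking was known, the largest group was amino acid and one-carbon metabolism with 27 genes. Transcription and chromatin followed with 20, then cell wall and cell surface with 17, membrane transport with 17, and sugar metabolism and storage with 15. Another 10 members, 6 of them within the top 50 and SPO24 and HBT1 among them, had another role or none that is known. Each group below is given by its counts and the values of named genes.

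Separate lists of genes with a shared function were used for the question of how many of a function's genes reached the top 200. Of all 7132 features, 2.80% are members by construction, and each list's share can be read beside that percentage. Of the 200 members, 94 belonged to at least 1 of 25 lists. The lists were chosen with results of these data already known, and no list was tested.

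**Figure D3:**
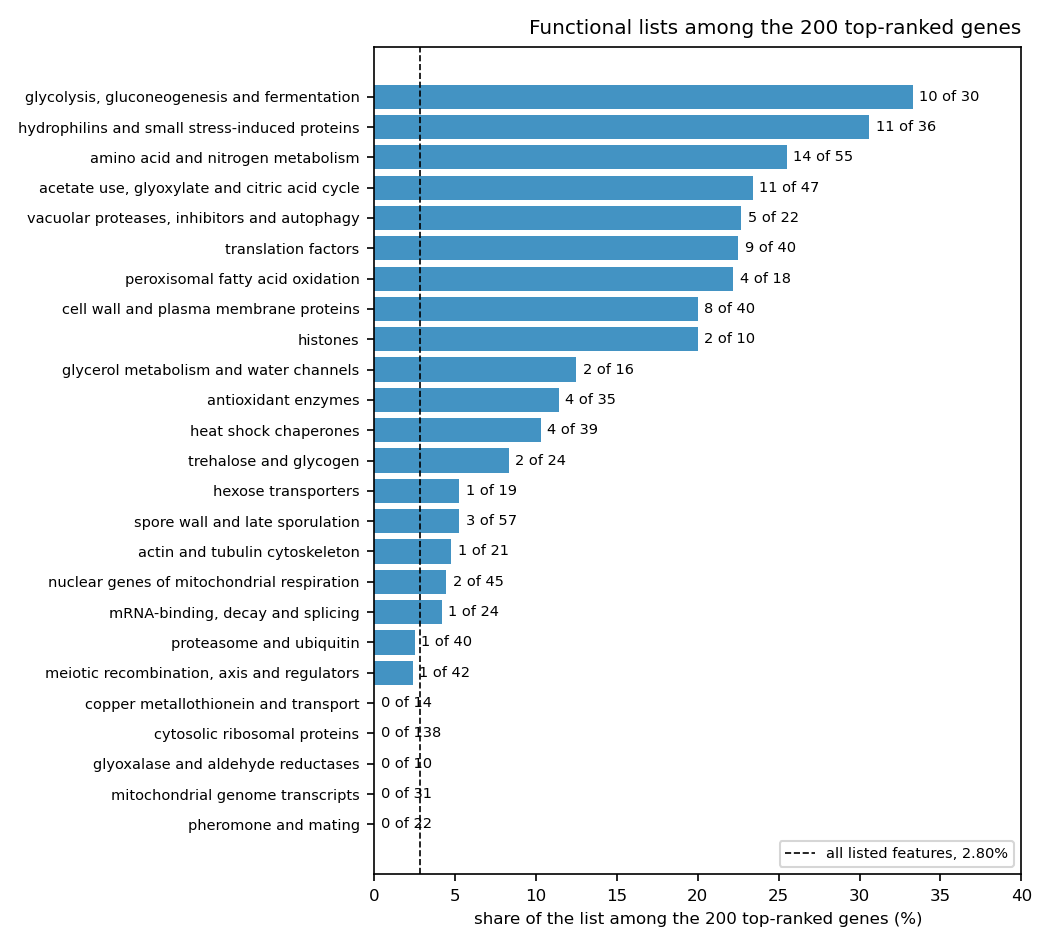
Each bar is the percentage of a list's measured genes that are among the 200 members, with the counts beside it, and the dashed line is the 2.80% that the members make up of all listed features. Glycolysis, small stress-induced proteins and amino acid metabolism stand at the top of the lists plotted with 10 of 30, 11 of 36 and 14 of 55 genes, and 5 lists have no member.

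Among genes of the spore wall and late sporulation, GSC2 and SPS100 stood near the head of the ranking. Of 57 such genes 3 were members (5.26%, against 2.80% of all features): GSC2 at rank 2, SPS100 at rank 12 and AQY1 at rank 127. Ranked by level per length, these genes stood at 101, 14 and 114. SPS100 encodes a protein of the maturing spore wall and had 2153 and 2833 CPM in RFP positive spores and 2217 and 3271 CPM in RFP negative spores. Its coding region overlaps an annotated non-coding transcript, SUT169, and whether reads were assigned by strand is not stated. AQY1 encodes the aquaporin of spores and had 526 and 762 CPM in RFP positive spores and 824 and 890.1 CPM in RFP negative spores. The lowest CPM of a gene had a median of 20.8 over the whole list, below the 45.5 over all features, so the few abundant wall messages were not typical of the list. Of 42 genes of meiotic recombination, chromosome axes and meiotic regulation 1 was a member (2.38%), IME1.

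IME1 at rank 67 is a special case, since the strain expresses it from the CUP1 promoter. It had 1150.4 and 2719 CPM in RFP positive spores and 778 and 2941 CPM in RFP negative spores, and the reference promoter of the gene is not the one used in the strain. The metallothionein copies CUP1-1 and CUP1-2 were listed at 0 in all 4 libraries, although copper was the inducer, and how reads from their identical copies were counted is not stated. Of 14 genes of copper binding and transport none was a member, and the highest-ranked, CCS1, the copper chaperone of superoxide dismutase, had 107 to 188 CPM at rank 1644. The cassette gene hph had 1991 and 2472 CPM in RFP positive spores and 95.1 and 38.1 CPM in RFP negative spores. In RFP positive libraries these levels lay within the range of members, and the RFP negative libraries placed hph at rank 3906. The other cassette gene, mCherry, had 217 and 526 CPM in RFP positive spores and 12.1 and 0 CPM in RFP negative spores, where a count of 0 allows up to 0.118 CPM.

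Proteins of the vegetative wall and plasma membrane were represented more broadly. Of 40 genes for cell wall and plasma membrane proteins 8 were members (20.0%): ECM33, UTH1, SED1, CCW14, PIL1, BGL2, CWP2 and CIS3. ECM33 encodes a cell surface protein with a glycosylphosphatidylinositol (GPI) anchor and had 2092 and 1431 CPM in RFP positive spores and 2741 and 1358 CPM in RFP negative spores. UTH1, of the SUN family of wall proteins, had 883 to 2069 CPM, and SED1, a major structural wall protein of stationary cells, had 796 to 2646 CPM. CCW14, an inner wall mannoprotein, had 2982 and 734 CPM in RFP positive spores and 3382 and 946 CPM in RFP negative spores, with both replicate 1 libraries more than 3-fold above both replicate 2 libraries. TOS1, a wall protein at rank 17 that was on no list, had 1826 to 3424 CPM. With the spore genes GSC2 and SPS100 and 6 others, 17 members were placed in the cell wall and cell surface group. Among the 6 were HPF1, KRE1, KRE2, FLO11 and the glucan synthase regulator RHO1. The 17 held 2.46% ± 0.44 of reads (SD, n = 4 libraries).

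The list of hydrophilins and small stress-induced proteins had a larger share of members than most lists. Of 36 hydrophilins and small stress-induced proteins 11 were members (30.6%): DDR2, HSP12, HOR7, GRE1, TMA10, SIP18, YNL190W, SPG5, MSC1, PHM7 and FMP16. Hydrophilins are glycine-rich, strongly hydrophilic proteins that accumulate in cells that lose water. By the sequence criterion given below, HSP12, GRE1, TMA10, SIP18 and YNL190W are of this kind. Others on the list are not, since DDR2 and HOR7 have positive, hydrophobic averages of 0.761 and 0.776 on the hydropathy scale. Nor are all of them small, as PHM7, MSC1 and SPG5 encode 991, 513 and 373 residues. HSP12 encodes a membrane-stabilizing small heat shock protein and had 4760.3 and 14608 CPM in RFP positive spores and 2094 and 16381 CPM in RFP negative spores. HOR7 had 1844 and 1808 CPM in RFP positive spores and 1802 and 1968 CPM in RFP negative spores and so varied least among the 11, its highest library being 1.09 times its lowest. GRE1, a hydrophilin, had 909 and 4264 CPM in RFP positive spores and 949.7 and 3946 CPM in RFP negative spores. The 11 genes together took 1.21% to 4.75% of the reads of a library, and in all of them but HOR7 and YNL190W both replicate 2 libraries were above both replicate 1 libraries.

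Heat shock chaperones were represented by genes that are also needed in unstressed cells. Of 39 chaperone genes 4 were members (10.3%): SSC1, KAR2, SSE1 and HSC82. SSC1, the Hsp70 protein of the mitochondrial matrix, had 809 and 975 CPM in RFP positive spores and 711 and 900.1 CPM in RFP negative spores, and KAR2, its counterpart in the endoplasmic reticulum, had 639 to 907 CPM. SSE1, a nucleotide exchange factor of cytosolic Hsp70, had 467 to 822 CPM, and the constitutively made Hsp90 gene HSC82 had 455 to 896 CPM. The 4 values of SSC1 and of KAR2 lay within 1.5-fold of each other. Of 35 antioxidant genes 4 were members (11.4%): ZWF1, which supplies reducing power as NADPH, at 498 to 937 CPM, the peroxisomal catalase gene CTA1 at 495 to 2064 CPM, the superoxide dismutase gene SOD1 at 449 to 1862 CPM, and the peroxiredoxin gene TSA1 at 384 to 913 CPM. All 4 had their higher values in both replicate 2 libraries.

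Transcripts for degradation in the vacuole were well represented. Of 22 genes for vacuolar proteases, their inhibitors and autophagy 5 were members (22.7%): PRB1, PEP4, ATG1, APE3 and PRC1. PRB1 encodes the vacuolar proteinase B, a protease needed for sporulation, and had 1488 and 5892 CPM in RFP positive spores and 1599.8 and 5548 CPM in RFP negative spores. PEP4 encodes proteinase A, which activates the other vacuolar hydrolases, and had 735 and 1314 CPM in RFP positive spores and 676 and 1495 CPM in RFP negative spores. ATG1, the kinase that starts autophagy, had 635 to 841 CPM, aminopeptidase gene APE3 had 519 to 912 CPM, and the carboxypeptidase Y gene PRC1 had 488 to 1157 CPM. PRB1, PEP4, APE3 and PRC1 were higher in both replicate 2 libraries, and ATG1 varied little. Of 40 genes of the proteasome and ubiquitin 1 was a member (2.5%), the polyubiquitin gene UBI4, which is induced by starvation, with 1132 and 1217 CPM in RFP positive spores and 1059.8 and 1321 CPM in RFP negative spores. BLM10 and TMC1, members outside that list, are also linked to the proteasome and had 437 to 1314 CPM and 429.6 to 702 CPM.

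Translation was represented by elongation and initiation factors and by no ribosomal protein. Of 40 translation factor genes 9 were members (22.5%): TEF1, TEF2, YEF3, TIF2, PAB1, TIF1, EFT1, EFT2 and EFB1. YEF3, the fungal elongation factor that empties the ribosomal exit site, had 4929.8 and 918 CPM in RFP positive spores and 6504 and 1086 CPM in RFP negative spores, with both replicate 1 libraries over 4-fold above both replicate 2 libraries. TIF2 and TIF1 encode the same RNA helicase of initiation, eIF4A, and had 869.7 to 908 CPM and 657 to 813 CPM. The translocation factor genes EFT1 and EFT2, also a pair with a shared product, had 440.3 to 1529 CPM and 414 to 1233 CPM. At least 84.9% of the 50-base words of TIF1, TIF2, EFT1 and EFT2 occur elsewhere in the genome, so that, as for TEF1 and TEF2, the split within each pair is uncertain. PAB1, the poly(A)-binding protein, had 1145 and 735 CPM in RFP positive spores and 1263 and 791 CPM in RFP negative spores.

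Of 138 genes for cytosolic ribosomal proteins none was among the 200 (0 of 138). The highest-ranked, RPS26A, stood at rank 328 with 698 and 283 CPM in RFP positive spores and 646 and 314 CPM in RFP negative spores. The lowest CPM of a gene had a median of 91.6 over the list, above the 45.5 over all features. Ribosomal protein genes are short, and a read count per gene is lower for a short transcript than for a long one at equal molecule number. On a scale that divides by length, 15 of the 138 were among the top 200. The whole list took 1.53% to 5.47% of the reads of a library.

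Amino acid synthesis was the largest functional group, and its level depended strongly on the library. Of 55 genes in the amino acid and nitrogen list 14 were members (25.5%): LEU1, MET6, ILV5, MET17, GLT1, BAT1, GLN1, SHM2, ARG56, GDH1, PUT1, ARG4, ARG3 and GCV2. A wider list of 85 biosynthetic genes, made after the ranking was seen, held 24 members (28.2%). The 27 members with a role in amino acid or one-carbon metabolism, BAP2 not included, took 2.66% to 8.21% of a library's reads.

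The branched-chain pathway, which makes leucine, isoleucine and valine, was covered at most of its steps by LEU1, LEU4, ILV2, ILV3, ILV5, ILV6 and BAT1. ILV5, the acetohydroxyacid reductoisomerase, had 8141 and 2209 CPM in RFP positive spores and 8837 and 2419.6 CPM in RFP negative spores. BAT1, the mitochondrial branched-chain aminotransferase, had 6582 and 817 CPM in RFP positive spores and 7312 and 921 CPM in RFP negative spores, and ILV2, the catalytic subunit of the first common enzyme, had 4233 and 1098 CPM in RFP positive spores and 5304 and 1067 CPM in RFP negative spores. In all 3 of these genes both replicate 1 libraries were more than 3-fold above both replicate 2 libraries. The branched-chain amino acid permease gene BAP2, at rank 16, likewise had its higher values in both replicate 1 libraries, with 5169.8 and 1828 CPM in RFP positive spores and 5315 and 1897 CPM in RFP negative spores.

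Arginine synthesis included CPA1, ARG56, ARG3, ARG4 and ARG7. CPA1, the small subunit of the arginine-specific carbamoyl-phosphate synthetase, had 6254 and 2246 CPM in RFP positive spores and 4876 and 2111 CPM in RFP negative spores. ARG56, called ARG5,6 in most of the literature, encodes a precursor that is cleaved into the acetylglutamate kinase and reductase, and had 4954 and 684 CPM in RFP positive spores and 5235 and 668 CPM in RFP negative spores. GDH1, the glutamate dehydrogenase that assimilates ammonium, had 4366 and 659.9 CPM in RFP positive spores and 5705 and 667 CPM in RFP negative spores, and GLN1, glutamine synthetase, had 777 to 2526 CPM. GCN4, the transcriptional activator of amino acid synthesis genes, was itself a member at rank 48 with 2995 and 1002 CPM in RFP positive spores and 3257 and 899.7 CPM in RFP negative spores, and PCL5, a cyclin that promotes the breakdown of Gcn4, had 2439.9 and 603 CPM in RFP positive spores and 2665 and 557 CPM in RFP negative spores. CPA1, ARG56, GDH1, GLN1, GCN4 and PCL5 each had their higher values in both replicate 1 libraries.

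In the sulfur branch MET6 was steady, as its 4 values show. MET17, the enzyme that incorporates sulfide, had 2289 and 1136 CPM in RFP positive spores and 2846 and 1222 CPM in RFP negative spores, the sulfite reductase genes MET5 and MET10 had 920.1 to 1743 CPM and 595 to 1258 CPM, and CYS4, the cystathionine beta-synthase, had 384 to 813 CPM. MET17 overlaps the annotated reading frame YLR302C. The sulfate permease gene SUL1 was also a member with 601 to 1855 CPM.

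Enzymes of sugar breakdown and glucose synthesis were frequent among the members. Of 30 genes of glycolysis, gluconeogenesis and fermentation 10 were members (33.3%): TDH3, PCK1, FBA1, ADH1, PGI1, PFK2, TPI1, PDC1, PFK1 and TDH2. Ranked by mean CPM 7 of the 30 were in the top 200, and per kilobase 6. PCK1, phosphoenolpyruvate carboxykinase and the committed step of gluconeogenesis, had 1341 and 2615 CPM in RFP positive spores and 1801 and 2844 CPM in RFP negative spores. FBA1, aldolase, which works in both directions, had 2776 and 1490.5 CPM in RFP positive spores and 3694 and 1241 CPM in RFP negative spores, and ADH1, the fermentative alcohol dehydrogenase, had 751 and 1559 CPM in RFP positive spores and 693 and 1201 CPM in RFP negative spores. PCK1 was higher in both replicate 2 libraries and FBA1 in both replicate 1 libraries. PDC1, the main pyruvate decarboxylase, ranged over 439 to 2991 CPM. Part of TDH3 and TDH2 is shared with paralogs, 24.4% and 31.3% of their 50-base words.

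Use of acetate, the carbon source of sporulation medium, was also represented. Of 47 genes for acetate use, the glyoxylate cycle and the citric acid cycle 11 were members (23.4%): PYC1, MDH2, ICL1, JEN1, CIT2, ACS1, YAT2, ALD4, ADY2, KGD1 and YAT1. PYC1, pyruvate carboxylase, had 2209 and 1089 CPM in RFP positive spores and 1472 and 958 CPM in RFP negative spores, and MDH2, the cytosolic malate dehydrogenase, had 1055 and 1770.2 CPM in RFP positive spores and 926 and 1985 CPM in RFP negative spores. ICL1, isocitrate lyase of the glyoxylate cycle, had 1521 and 912 CPM in RFP positive spores and 813 and 777 CPM in RFP negative spores, and JEN1, the carrier of lactate and pyruvate, had 1018 and 1971 CPM in RFP positive spores and 773 and 1904 CPM in RFP negative spores. The acetyl-CoA synthetase gene ACS1 and the mitochondrial aldehyde dehydrogenase gene ALD4 had 616 to 2153 CPM and 584 to 3588 CPM, with their higher values in both replicate 2 libraries. ADY2, the acetate transporter, had 446 to 922 CPM. Of 18 genes of peroxisomal fatty acid oxidation 4 were members (22.2%): FOX2, the multifunctional beta-oxidation enzyme, at 513 to 1516 CPM, CTA1, and the acyl-CoA synthetase genes FAA1 and FAA4 at 479 to 862 CPM and 388 to 482 CPM.

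Of 45 nuclear genes of mitochondrial respiration 2 were members (4.44%, near the 2.80% of all features): COR1, a core subunit of the cytochrome bc1 complex, at 448 to 613 CPM, and POR1, the porin of the outer membrane, at 434 to 645 CPM. Ranked by level per length, 15 of the 45 were in the top 200. None of 31 transcripts of the mitochondrial genome was a member (0 of 31), and the highest-ranked, 21S_RRNA, had 15.1 to 529 CPM at rank 4995. The methods name an mRNA-seq library kit, whereas the design text names depletion of ribosomal RNA, and how far transcripts without a poly(A) tail were captured was not tested.

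Of 24 genes of trehalose and glycogen metabolism 2 were members (8.33%): NTH1, the neutral trehalase that breaks trehalose down, at 614 to 1002 CPM, and GAC1, a phosphatase subunit that promotes glycogen accumulation, at 501 to 690.2 CPM. Of 16 genes of glycerol metabolism and water channels 2 were members (12.5%), AQY1 and the glycerol phosphatase gene GPP1, which had 706 and 1150.0 CPM in RFP positive spores and 691 and 1079.7 CPM in RFP negative spores. Of 19 hexose transporter genes only HXT5 was a member (5.26%), and the median of the lowest CPM over the list was 36.9. None of 10 glyoxalase and aldehyde reductase genes was a member (0 of 10), the highest-ranked being GRE2 at rank 398 with 254 to 960.4 CPM.

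Lipid genes among the members covered membrane synthesis and storage. PLN1 at rank 15 encodes a perilipin-like protein of lipid droplets and had 2108 and 2559 CPM in RFP positive spores and 2084 and 2871 CPM in RFP negative spores. ERG3 at rank 28, the sterol C-5 desaturase, had 1284 and 1470.4 CPM in RFP positive spores and 1375 and 1801 CPM in RFP negative spores, and ERG25, a sterol methyl oxidase, had 835 and 1264 CPM in RFP positive spores and 1144 and 1658 CPM in RFP negative spores. In lists made after the ranking was seen, 5 of 20 genes of ergosterol synthesis (25%) and 6 of 16 genes of fatty acid synthesis and activation (37.5%) were members. The fatty acid synthase subunit genes FAS2 and FAS1 had 1221 to 1593 CPM and 834 to 1009 CPM, and ACC1, the acetyl-CoA carboxylase, had 1052 to 1849.8 CPM. OLE1, the delta-9 fatty acid desaturase, had 789 and 3182 CPM in RFP positive spores and 1011 and 3019 CPM in RFP negative spores, with both replicate 2 libraries above both replicate 1 libraries.

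Transporters made up 17 members and 2.05% ± 0.14 of reads (SD, n = 4 libraries). After HXT5 and BAP2 the next was PHO89, a phosphate transporter coupled to sodium, with 1868 and 1505 CPM in RFP positive spores and 2159 and 1243 CPM in RFP negative spores. Of 15 ATP-binding cassette drug transporter genes, a list made after the ranking was seen, 4 were members (26.7%): PDR5, PDR10, SNQ2 and YOR1. PDR5, the main drug efflux pump, had 1903 and 1364 CPM in RFP positive spores and 1527 and 807 CPM in RFP negative spores, and PDR10 had 932 and 3001 CPM in RFP positive spores and 532 and 2736 CPM in RFP negative spores. PMR1 and PMC1, calcium ATPases of the Golgi and the vacuole, had 565 to 619 CPM and 385 to 854 CPM. The zinc transporter gene ZRC1 had 432 to 619 CPM and the dipeptide transporter gene PTR2 had 500.0 to 599 CPM.

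Transcription and chromatin made up 20 members, among them histones and the RNA polymerase subunit RPO21 as well as transcription factors. Their summed share of reads was nearly the same in every library, 1.67% to 1.84%. Single members were less even, with GCN4 higher in both replicate 1 libraries and IME1 higher in both replicate 2 libraries. After GCN4 the highest-ranked were HAP1, a heme-dependent activator of respiratory genes, with 873 and 1176 CPM in RFP positive spores and 1035 and 1203 CPM in RFP negative spores, and ROX1, a repressor of hypoxic genes, with 1147 and 873 CPM in RFP positive spores and 1095 and 856 CPM in RFP negative spores. VHR1 had 801 to 1258 CPM. HAC1, the activator of the unfolded protein response, whose message needs a non-conventional splicing event to be translated, had 635 and 781 CPM in RFP positive spores and 718 and 736 CPM in RFP negative spores. RIM101, a repressor that acts early in sporulation, had 624 to 819 CPM, and XBP1, a repressor made in starved cells and in meiosis, had 572 to 1332 CPM. Of 10 histone genes 2 were members (20.0%), HHT1, which encodes histone H3, at 771 and 1104 CPM in RFP positive spores and 686 and 1068 CPM in RFP negative spores, and HTB1, which encodes histone H2B, at 542 to 967 CPM. RPO21, the largest subunit of RNA polymerase II, had 638 to 1095 CPM.

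RNA-binding proteins added 7 members. YRA1, an adaptor of mRNA export, had 1551 and 1259 CPM in RFP positive spores and 1482 and 1166 CPM in RFP negative spores. SSD1, a translational repressor that binds wall protein messages, had 1403 and 2544 CPM in RFP positive spores and 1153 and 2636 CPM in RFP negative spores, HRP1, a subunit of the cleavage factor that forms 3′ ends, had 825 to 1134 CPM, and NRD1, of a termination complex for short transcripts, had 593 to 1001 CPM. Of 24 genes of mRNA binding, decay and splicing 1 was a member (4.17%), NPL3, an mRNA export and splicing factor, with 497 and 1088 CPM in RFP positive spores and 637 and 1044 CPM in RFP negative spores.

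Signalling and protein regulation contributed 12 members with a summed share of 0.973% to 1.03% of reads per library. This even sum covers opposite shifts of single genes. PCL5 and RTS3 were higher in both replicate 1 libraries, and CSR2 was higher in both replicate 2 libraries. BMH1, an adaptor protein that binds phosphorylated partners, had 1087 and 1169.5 CPM in RFP positive spores and 1055 and 1202 CPM in RFP negative spores. Its paralog BMH2 had 635 to 879 CPM. RIM15, the kinase that carries nutrient starvation signals towards stationary phase and meiosis, had 459 and 446 CPM in RFP positive spores and 453 and 444 CPM in RFP negative spores and was the steadiest of all members, its highest library being 1.03 times its lowest. CDC25, the exchange factor that activates Ras, had 415 to 671 CPM. KNS1, a kinase of the LAMMER family, had 815 to 1221 CPM.

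Of 21 actin and tubulin cytoskeleton genes 1 was a member (4.76%), ACT1, the only actin gene, with 917 and 868 CPM in RFP positive spores and 1025 and 795 CPM in RFP negative spores. Among enzymes of other pathways, SNZ1, a protein of vitamin B6 synthesis that is made in stationary phase, had 2371 and 1729.8 CPM in RFP positive spores and 1570.1 and 1615 CPM in RFP negative spores. NCE103, the carbonic anhydrase, had 3199 and 1133 CPM in RFP positive spores and 2939.6 and 1144 CPM in RFP negative spores, and URA2, the first enzyme of pyrimidine synthesis, had 802 to 3283 CPM. None of 22 pheromone and mating genes was a member (0 of 22). The highest-ranked of them was SAG1, the agglutinin of alpha cells, at rank 318 with 289 and 294 CPM in RFP positive spores and 315 and 288 CPM in RFP negative spores. At SAG1, too, the study reported antisense transcripts in these spores, and whether its count includes such reads is not stated.

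Several of the most abundant transcripts encode proteins without a well established role. YDR524C-B at rank 19 had 3181 and 1723 CPM in RFP positive spores and 4695 and 1796 CPM in RFP negative spores, ANS1 at rank 20 had 3514 and 1576 CPM in RFP positive spores and 3871 and 1829 CPM in RFP negative spores, and YBR085C-A at rank 27 had 2020.2 and 1936 CPM in RFP positive spores and 1321 and 1989 CPM in RFP negative spores. All 3 have short coding sequences, of which that of ANS1, at 480 bp, is the longest. YMR244W at rank 31 had 1221 to 3054 CPM and ICS2 at rank 71 had 755 to 1227 CPM. The first 3 of these stood still higher once length was taken into account.

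YJL225C and YIL177C at ranks 23 and 24, and YEL077C at rank 94, are helicase genes of the Y′ elements, repeats that lie next to telomeres. YJL225C had 1569.9 and 1725 CPM in RFP positive spores and 1487 and 1828 CPM in RFP negative spores, YIL177C had 1455 and 1487 CPM in RFP positive spores and 1359.8 and 1589 CPM in RFP negative spores, and YEL077C had 653 and 667 CPM in RFP positive spores and 638 and 669 CPM in RFP negative spores. All 50-base words of YJL225C and YIL177C and 83.8% of those of YEL077C occur elsewhere, so a level of any 1 copy is uncertain, and SK1 need not carry the same copies as the reference. Of 11 such genes, a list made after the ranking was seen, 3 were members (27.3%). The 3 together took 0.348% to 0.409% of reads.

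Members differed widely in how steady they were over the 4 libraries. The ratio of the highest to the lowest CPM had a median of 1.79 and quartiles of 1.37 and 2.66. It was under 1.5 for 68 members and under 2 for 113, and it was 4 or more for 24. The 5 largest ratios were those of MSC1 (11.7), BAT1 (8.95), GDH1 (8.65), ARG56 (7.84) and HSP12 (7.82). MSC1, which is of unclear function and was first linked to meiotic sister chromatid recombination, had 1008 and 5417 CPM in RFP positive spores and 489.8 and 5741 CPM in RFP negative spores. The 5 smallest were those of RIM15 (1.03), TIF2 (1.04), YEL077C (1.05), GAT2 (1.07) and ENT2 (1.08). In 170 members (85.0%) both libraries of 1 replicate number lay on the same side of both libraries of the other. The share was 62.5% of the 5832 features with reads in all libraries. The smallest estimated count of a member was 9761, whereas the 5832 features include any with a count above 0 in each library. Counting error therefore differs between the 2 shares, and they were not compared at equal depth. Rank correlations between pairs of libraries over the 200 members ran from 0.369 to 0.961 in the 6 pairs. These points are genes of the same libraries and not replicates.

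The order within a single library was accordingly not the same as the shared order. Of the 200 members, 88 were also among the 200 most abundant features of each library taken by itself. Any gene that meets this in all 4 libraries is a member by construction of the rule. A further 23 were in the top 200 of 3 libraries, 51 of 2 libraries and 11 of 1 library, and 27 members were in the top 200 of none. Conversely, 156 genes were in the top 200 of at least 1 library and were not members. The rule therefore favours messages that are steadily abundant over those that are very abundant in 1 experiment.

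A read count per gene mixes abundance with transcript length, so levels of different genes were also compared as TPM, a scale that divides each count by the annotated exon length before scaling every library to the same total. The annotation holds coding exons without untranslated regions, and the TPM of very short genes is therefore overstated. On this scale the lowest value of a member over the 4 libraries ranged from 70.4 TPM for BLM10 to 25168 TPM for SPO24, a 358-fold span, with a median of 384 TPM against 43.7 TPM over the 6047 features with an annotated length. SPO24 remained first with 25168 to 29251 TPM. DDR2 followed with 16962 to 34038 TPM, then HOR7 with 9837 to 10491 TPM, YDR524C-B with 8269 to 24188 TPM and HSP12 with 6571 to 45927 TPM. The next 5 were YBR085C-A, YOR302W, TMA10, ANS1 and SIP18.

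Of the 10 highest genes by TPM, 9 were members. The exception, YOR302W, is the 78 bp reading frame in the leader of the CPA1 message, stood at rank 315 by CPM, and had 3441 to 7795 TPM. TMA10, a ribosome-associated stress protein, had 3285 to 4889.6 TPM, and the hydrophilin gene SIP18 had 3204 to 20971 TPM. Ranked by their lowest TPM, 106 of the 200 members stayed in the top 200 and 94 left it. Those that left were long, with a median exon length of 2460 bp, against 1042 bp for those that stayed and 379.5 bp for the 94 genes that took their places. GSC2 moved from rank 2 by CPM to rank 101 by TPM at 638 to 682 TPM, and 10 members, among them RIM15, RPO21 and URA2, stood beyond rank 1000 by TPM.

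**Figure D4:**
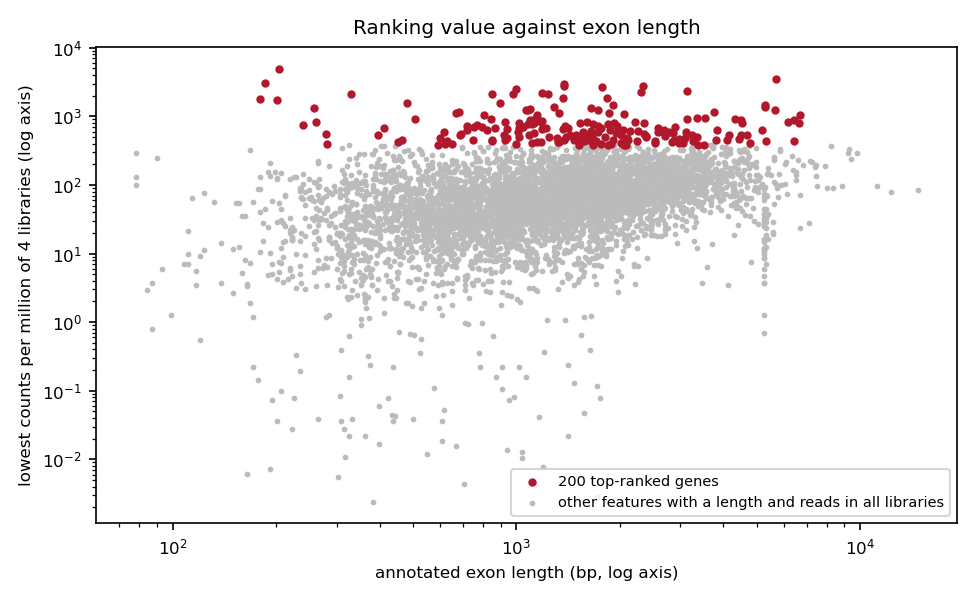
The horizontal axis is annotated exon length in bp and the vertical axis the lowest CPM of the 4 libraries, both on log scales. Red points are the 200 members and grey points the other features that have a length and reads in all libraries. Members range from HOR7 at 180 bp to ACC1 at 6702 bp, and SPO24, one of the few short members, lies above the long GSC2, while DDR2 and HOR7 lie below it.

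Several properties of the members were compared with those of all coding genes. All 200 were nuclear protein-coding genes. Their median exon length was 1576 bp, against 1197 bp over 5989 nuclear protein-coding genes, but CPM itself grows with length, and the top 200 per kilobase had a median of 612 bp. Codon usage was measured with a codon adaptation index relative to ribosomal protein genes, in which 1 means that only the codons they prefer are used. The median index was 0.310 in members and 0.193 in all coding genes, and 87 members (43.5%) fell in the top 10% of all coding genes. TDH3 had the highest index of the members, 0.922, and YAT1 the lowest, 0.109. Coding sequences of members had a median GC content of 42.2%, against 39.8%. Introns were about as rare as elsewhere, with 7 of 200 genes (3.50%) against 4.53%: YJL225C, YIL177C, ECM33, YRA1, ACT1, HAC1 and EFB1.

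Proteins that are glycine-rich and strongly hydrophilic, with over 6% glycine and an average hydropathy below -1, were encoded by 9 members (4.5%) and by 75 of all 5989 coding genes (1.25%). They were HBT1, HSP12, GRE1, TMA10, HRP1, SIP18, YNL190W, NPL3 and YNL208W. This set therefore included known hydrophilins and, in HRP1 and NPL3, RNA-binding proteins with glycine-rich regions.

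Promoters were taken as the 300 bp before the start codon in the R64 reference, and searched on both strands. None of the 7 motifs contains another, though sites may overlap. AGGGG was present in 68 of 200 member promoters (34.0%) and in 22.2% of the promoters of all coding genes. At least 3 copies were present in the promoters of DDR2, PIL1, ZWF1, SEC31 and PNC1, which makes 2.5% of members against 0.551% of all. PIL1 encodes the main component of eisosomes, SEC31 a coat protein of vesicles that leave the endoplasmic reticulum, and PNC1 nicotinamidase. In the PNC1 promoter 2 of the copies are separated by a single base.
PNC1, chrVII:428164-428193, minus strand: aaaagttcttcaAGGGGcAGGGGtttccgt
The TATA box TATAAA was present in 63% of member promoters and in 48.2% of all, and the Rap1 site core ACCCANNCA in 5% and 3.22%. Motifs of the sporulation programme were about as frequent in members as in all genes. The core of the middle sporulation element, CACAAAA, was present in 8% and 7.93%, and the URS1 core GGCGGC of early meiotic genes in 4.5% and 5.21%. The heat shock element GAANNTTC, at 11% and 11.5%, and the Hap complex site CCAAT, at 40.5% and 41.8%, also differed little. A match is a string of letters in a window and not evidence of binding.

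**Figure D5:**
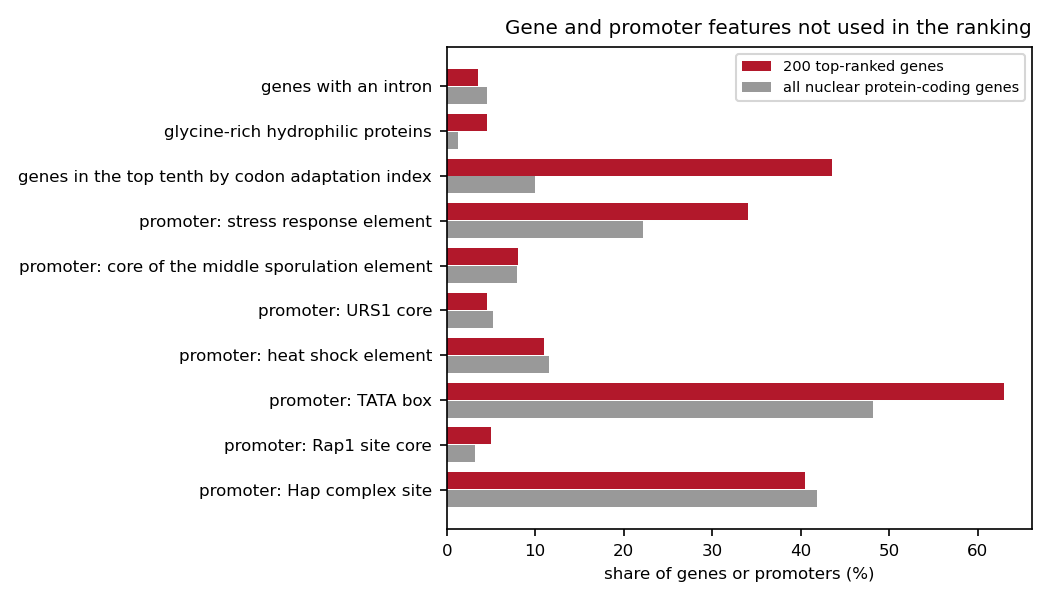
Pairs of bars give the percentage of genes or promoters with each feature, red for the 200 members and grey for all nuclear protein-coding genes. The largest gap is in the share of genes in the top 10% by codon adaptation index, 43.5% against 10%, followed by TATAAA and AGGGG, and the bars for the middle sporulation, URS1 and heat shock elements are of similar length.

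Some of these features were also read along the ranking, in blocks of 50 ranks. The median exon length was 1312.5 bp in the first 50 ranks and 1687.5 bp in the last 50. The median codon adaptation index was 0.337, 0.391, 0.244 and 0.314 in the successive blocks. AGGGG was present in 18, 12, 17 and 21 promoters of the successive blocks of 50 ranks, so it did not concentrate at the top. For 175 members no 50-base word of the coding sequence occurs elsewhere in the reference, and for 17 at least 10% do.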

How the data were processed

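RNA of sorted spores (100 ng total RNA per library) was sequenced as paired ends. The authors aligned reads with STAR 2.7.3a to R64 plus the mCherry and hph sequences, counted reads per gene with featureCounts and deposited estimated counts, not normalized, most of them fractional. The treatment of strand, of overlapping genes and of reads with several matches is not given in the sources used here.

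Samples were grouped by the RFP label of their titles. Deposited values were used unrounded and divided by the column total. Genes were ranked by the lowest of 4 CPM values and the first 200 kept, with no test. The members and the gene lists were chosen with earlier results of these data known. The text names the top 30 genes, the 10 highest by TPM, up to 4 leading members of each list, ranks 198 to 203, the 5 largest and 5 smallest ratios, the cassette genes and IME1. Other genes were named after their values were seen. Values of 1 member are not reported here.

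Locus tags matched 6047 of 7132 features to the R64 RefSeq annotation, which gave lengths, introns and promoters. Settings tried were mean or median CPM, TMM (edgeR 4.0.16) and DESeq2 1.42.0 size factors in R 4.3.3, coding genes only, per kilobase, filterByExpr, rounding, the top 100 or 400, and leaving out each library. Depths were 25493760 to 45697828 reads. Python 3.11.15, numpy 2.4.6, pandas 2.3.3 and matplotlib 3.10.9 were used.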

Additional observations from a re-analysis of the deposited data

How the results depend on the processing

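Ranked per kilobase, 106 of the 200 genes stayed, the median exon length became 612 bp and the share of reads 22.96%. The top 100 held 100 of the 200 genes, 52 in a list, 1350 bp and 20.5% of reads, and the top 400 held 150 in a list, 1688 bp and 37.1%. Ranking by mean CPM kept 152 genes and gave a median of 1410 bp and 30.48% of reads, and ranking by median CPM kept 154 and gave 1410 bp and 30.27%. TMM or DESeq2 scaling, coding genes only, filterByExpr and rounding kept 197 to 200 genes. Leaving out each library in turn kept 183 to 195 genes and gave 92 to 101 genes in a list, 1538 to 1576 bp and 28.15% to 28.57% of reads. Of 350 recomputed counts of single lists, 41 changed by over 1.5 times or rose from 0. The 350 include the top 100 and top 400, where the length of the ranking alone changes such counts. Among the 41 was the respiration list, with 2 members by lowest CPM, 0 by mean CPM and 15 per kilobase. By mean CPM the small stress-induced proteins held 17 members and the cell wall list 13, and per kilobase histones held 6, glycolysis 6, and trehalose and glycogen and peroxisomal oxidation 0.

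No paired analysis was possible because the ranking comes from no test. Depth does not limit member values, and 4 libraries of 2 sporulations limit the estimate of spread. Shared sequence limits 17 members. Fewer spores and less RNA per spore cannot be told apart.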
